A study of Arabidopsis thaliana with 35 samples.

Results

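A set of genes of the plant cell division machinery was followed by their locus identifiers through every library of an RNA-seq series on Arabidopsis thaliana seedlings, 10 of the 32833 genes in the deposited count tables. They are the B cyclins CYCB1;1 (AT4G37490), CYCB1;2 (AT5G06150), CYCB1;4 (AT2G26760) and CYCB2;1 (AT2G17620), the B-type kinases CDKB1;1 (AT3G54180), CDKB2;1 (AT1G76540) and CDKB2;2 (AT1G20930), and the D3 cyclins CYCD3;1 (AT4G34160), CYCD3;2 (AT5G67260) and CYCD3;3 (AT3G50070). They were chosen with earlier results of these data known. All 10 passed the filter on low counts in all 15 comparisons made. The first 7 are called the mitotic genes below and the last 3 the D3 cyclins.

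The series asked how seedlings respond when the receptor kinase ERECTA (ER) or its peptide ligand EPFL4 is switched on. Week-old whole seedlings of the Columbia ecotype were sampled uninduced, or after 3 h or 8 h on plates with 17-β-estradiol, and each library pooled a few seedlings. WT carried no transgene, so its estradiol libraries are the control for the transfer itself. The er XVE:ER line was the er mutant carrying ER cDNA behind an estradiol-inducible promoter, with the XVE activator under the broadly active 35S promoter, made homozygous in the T3 generation. XVE:EPFL4 was a WT-background line known from its labels alone. There were 4 libraries per condition, 35 in all over 9 conditions, except er XVE:ER at 3 h with replicates 1, 2 and 4. Uninduced libraries are labelled as 0 h on mock plates, while the methods give 3 h on mock plates.

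Plant cells enter division through D-type cyclins, which bind the kinase CDKA and lead to phosphorylation of the retinoblastoma protein, releasing E2F factors that switch on the genes of DNA replication. B-type cyclins and the plant-specific CDKB kinases are made later, around the passage from G2 into mitosis, so their transcripts are widely used as a sign of dividing cells. Many of these late genes carry AACGG, the core of the mitosis-specific activator element bound by MYB3R transcription factors. The D3 cyclins promote division in young leaves and in the vascular cambium, the layer whose activity ER was studied for.

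The 250 bases before the annotated start of each gene were read from the TAIR10.1 genome at NCBI and searched on both strands for AACGG and for 2 sites of the E2F type, spelled TTCCCGC and, in the other form, TTGGCGC. The first, which reads CCGTT on the other strand, was found in 5 of the 10 windows, against 20.6% of the 27443 windows of the same length. The windows of CYCB1;1, CYCB1;2 and CYCB2;1 held 3, 4 and 3 matches, and 3.62% of all windows held 2 or more. Those of CDKB2;2 and CYCD3;1 held 1 each. The window of CYCD3;1 overlaps the gene AT4G34150. Those of CDKB1;1 and CDKB2;1, which held no match, overlap AT3G54170 and AT1G76550. An E2F-type match was found only in the window of CYCD3;3, and in 1.92% of all windows. A match is a run of letters and not a measured binding site. The 4 windows shown are given, 5′ to 3′ on the gene's own strand, with matches to AACGG on either strand in capitals. They are the pair of B1 cyclins with most matches, a CDKB2 gene with a single match, and the D3 cyclin that moved most, which has none. The windows lie at chr4:17624309-17624558 (minus strand), chr5:1861704-1861953 (minus strand), chr1:7294747-7294996 (minus strand) and chr5:26835889-26836138 (plus strand), each ending at the base before the gene's start.
CYCB1;1: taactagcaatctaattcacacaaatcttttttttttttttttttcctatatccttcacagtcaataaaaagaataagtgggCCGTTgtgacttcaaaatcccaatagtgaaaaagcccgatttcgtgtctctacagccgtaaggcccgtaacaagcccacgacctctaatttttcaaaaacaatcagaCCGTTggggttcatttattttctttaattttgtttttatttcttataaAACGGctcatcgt
CYCB1;2: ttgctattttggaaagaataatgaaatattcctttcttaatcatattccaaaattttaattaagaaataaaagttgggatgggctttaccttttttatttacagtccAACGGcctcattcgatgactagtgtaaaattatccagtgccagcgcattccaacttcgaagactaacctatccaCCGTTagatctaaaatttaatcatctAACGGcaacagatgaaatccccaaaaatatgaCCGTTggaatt
CDKB2;2: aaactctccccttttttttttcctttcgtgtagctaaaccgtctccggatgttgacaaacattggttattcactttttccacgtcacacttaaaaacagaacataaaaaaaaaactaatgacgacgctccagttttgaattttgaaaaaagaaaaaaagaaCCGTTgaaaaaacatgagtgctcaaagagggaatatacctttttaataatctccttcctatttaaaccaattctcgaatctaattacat
CYCD3;2: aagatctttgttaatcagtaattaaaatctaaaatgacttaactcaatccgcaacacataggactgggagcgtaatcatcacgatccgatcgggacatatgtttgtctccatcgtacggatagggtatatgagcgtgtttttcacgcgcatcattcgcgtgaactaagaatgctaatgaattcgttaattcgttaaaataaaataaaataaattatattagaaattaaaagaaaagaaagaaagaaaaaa

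Counts per library summed to 18224765 to 25089853 (median 20657563), and the lowest count of any member in any library was 21. Levels are given as CPM, the count of a gene scaled to a common library size. The induced transgenes checked the labels: ER averaged 51.8, 360 and 1077 CPM in er XVE:ER uninduced, at 3 h and at 8 h, and EPFL4 averaged 2.46, 1296 and 1768 CPM in XVE:EPFL4. The clock also moved with the hours. CCA1, a morning clock gene, averaged 288 CPM in WT uninduced, 136 at 3 h and 1.22 at 8 h, so hours on the plates and time of day cannot be told apart in any comparison over time. Among the 35 libraries, 4 correlated best with a library of another group: er XVE:ER uninduced replicate 4, WT 3 h replicate 4, er XVE:ER 8 h replicate 1 and XVE:EPFL4 8 h replicate 1. The first held 59.5 CPM of CCA1 where its 3 fellows held 269 to 297, and the second 43.0 where its fellows held 143 to 180. The 8 h libraries were not uniform in any line. Those of WT fell into pairs. PRR7, another clock gene, stood at 118 and 120 CPM in replicates 1 and 4 and at 36.4 and 38.6 in replicates 2 and 3, and chi-square per degree of freedom between their counts was 5.28 and 21.6 within these pairs and 66.8 to 82.2 across them. In er XVE:ER at 8 h it was 8.03 between replicates 2 and 3 and 40.9 to 90.9 for the other pairs. In XVE:EPFL4 at 8 h it was 8.58 between replicates 3 and 4 and 42.8 to 79.6 for the others. Calls of the members against uninduced libraries are given with and without the 4 libraries and the WT pairs named above. Sums over genes, correlations, variance shares, profile rankings, list counts and the tests from 3 h to 8 h use all libraries.

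Across the 9 conditions, transcripts of the 7 mitotic genes were lowest in uninduced WT and highest in XVE:EPFL4 at 8 h. Their summed level was 54.4 ± 5.37 CPM (SD, n = 4) in uninduced WT, 68.4 ± 10.4 at 3 h and 79.4 ± 11.3 at 8 h. In XVE:EPFL4 it was 82.6 ± 5.39, 99.8 ± 2.04 and 109 ± 8.27 CPM at the same times (n = 4 each). In er XVE:ER it was 80.0 ± 28.5 (n = 4), 91.7 ± 5.02 (n = 3) and 81.6 ± 5.71 CPM (n = 4), and replicate 4 of the uninduced group stood at 123 CPM against 63.2 to 69.8 in the other 3. In the order of the 9 means, each condition overlapped the next, apart from er XVE:ER at 3 h (86.4 to 96.4 CPM) and XVE:EPFL4 at 3 h (97.0 to 101 CPM). These are whole seedlings, in which fewer dividing cells and less RNA per cell cannot be told apart.

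**Figure D1:**
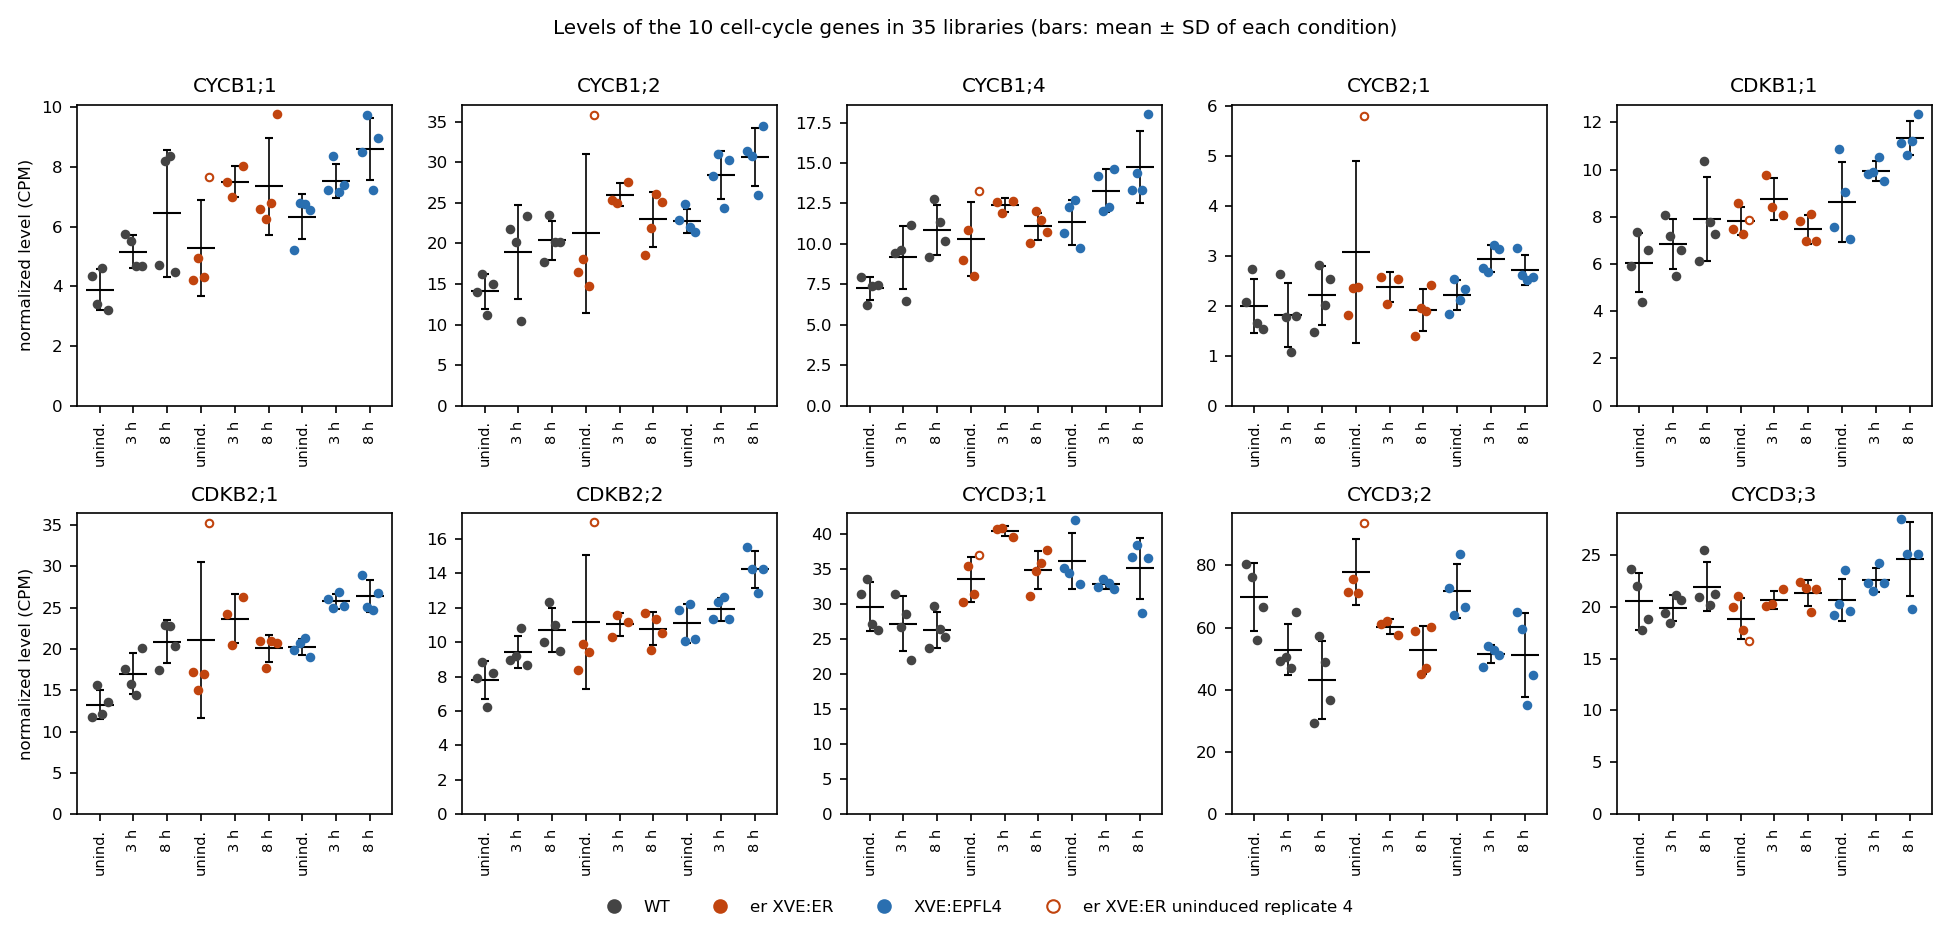
Level of each of the 10 genes in every library, in CPM on a separate linear axis for each gene, by condition, with points for libraries and a bar for the group mean. Apart from CYCB2;1 the mitotic genes have their lowest mean in uninduced WT and the 3 D3 cyclins show no such order, and er XVE:ER uninduced replicate 4 stands above its fellows in most of the mitotic genes.

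Per kilobase of the longest transcript, the D3 cyclins were the most abundant members in uninduced WT. CYCD3;2 averaged 46.9 CPM per kb, and the other D3 cyclins 15.8 and 14.3. Of the mitotic genes, AT1G76540, a CDKB2 kinase, was highest at 9.70 CPM per kb, and AT2G17620, the B2 cyclin, was lowest at 1.21. Between those came AT5G06150 at 7.92, AT1G20930 at 5.61, AT3G54180 at 4.39, AT2G26760 at 3.98 and AT4G37490 at 2.39 CPM per kb.

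The first comparison asked whether the lines differed before any estradiol. In uninduced XVE:EPFL4 seedlings 5 of the 7 mitotic genes were higher than in uninduced WT, with no overlap between the groups for any of them, and no D3 cyclin was called. Calls here and below are at an adjusted p under 0.05 in edgeR's quasi-likelihood test, with Benjamini-Hochberg adjustment over all genes tested. In this comparison 9.93% of all genes tested were called, 5.93% were called higher, and 7.85% were higher without overlap. The median log2 difference of the mitotic genes was 0.62, against -0.000587 over all genes tested. EPFL4 itself was already higher in the uninduced line, at 1.35 to 3.39 CPM against 0.535 to 0.793 in WT, a log2 difference of 1.86 ± 0.31 (SE, edgeR adjusted p = 0.00227). The 8 stomatal lineage markers, which mark another population of dividing cells, summed to 45.1 to 56.5 CPM in XVE:EPFL4 and 44.9 to 56.0 in WT, with 1 of 8 called (POLAR, higher in XVE:EPFL4). A fit across all 35 libraries, which shares 1 estimate of the spread, called only 1 of the 5 members (CYCB1;4), and a fit without the libraries numbered 4 called 3.

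Between uninduced er XVE:ER and uninduced WT no member was called, and 0.0861% of all genes were. All 7 mitotic genes had positive log2 differences, with a median of 0.52 against 0.02 over all genes, and 4 of them had an unadjusted p under 0.05, as did 6.37% of all genes. The lowest edgeR adjusted p was 0.739, for AT2G26760, and DESeq2 called none. Without er XVE:ER uninduced replicate 4, the 10 members still gave no call, and the mitotic genes' log2 differences ran from 0.13 to 0.37. The stomatal lineage markers summed to 105 to 136 CPM in this line, above WT in every library, with 3 of 8 called higher, and their part in the values of the members was not tested.

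**Figure D2:**
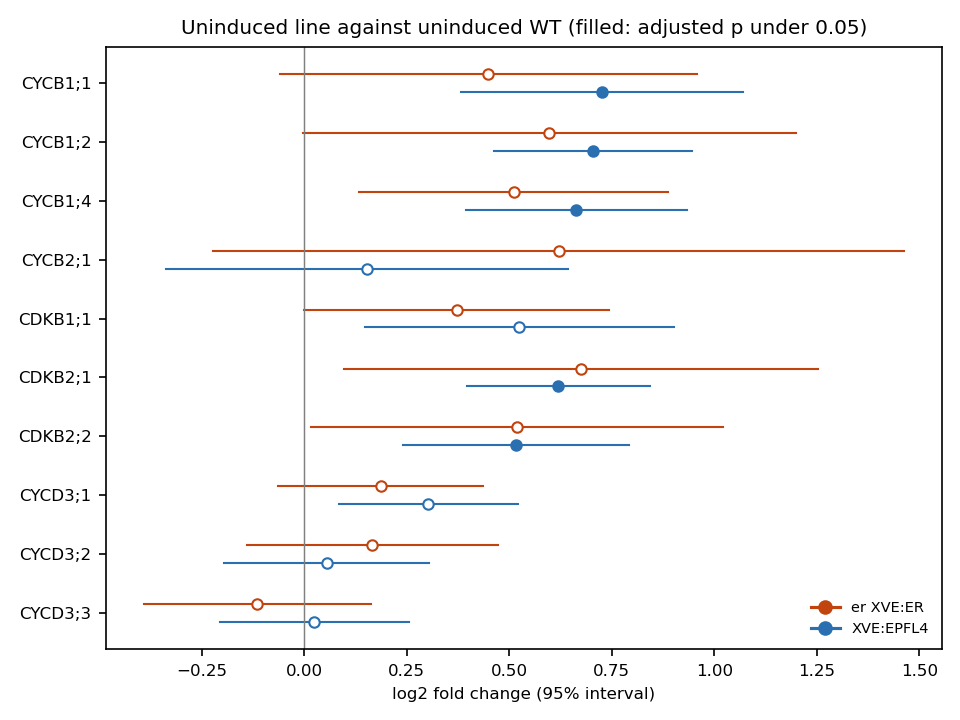
Log2 difference of each of the 10 genes between uninduced er XVE:ER or XVE:EPFL4 and uninduced WT from edgeR, with points for the estimates, bars for 95% intervals and filled points for calls at an adjusted p under 0.05. The called genes are 5 mitotic genes in XVE:EPFL4, at log2 differences of 0.52 to 0.73.

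The second comparison asked what changed over time on estradiol in each line. In WT, 5 of the 7 mitotic genes were higher and 1 D3 cyclin was lower after 8 h on estradiol, while at 3 h none of the 10 was called and 3 had an unadjusted p under 0.05. Over all genes tested, the test called 23.5% at 3 h and 33.7% at 8 h, the latter being 18.4% in the higher and 15.2% in the lower direction, and 36.4% had an unadjusted p under 0.05 at 3 h. In 4 of the 5 mitotic genes the 8 h libraries lay wholly above the uninduced ones, as in 18.7% of all genes. The median log2 change of the mitotic genes was 0.35 at 3 h and 0.53 at 8 h, against -0.000258 and 0.02 over all genes. WT carries no inducible gene, so in these changes the transfer, the estradiol and the hours cannot be told apart. At 3 h, DESeq2 called CYCD3;2, and leaving out WT 3 h replicate 3, the library with the lowest mitotic sum (53.5 CPM), brought calls of CYCB1;2 and CYCB1;4 (edgeR adjusted p = 0.0138 and 0.0432). Without WT 3 h replicate 4, 1 member was called at 3 h, and without all libraries numbered 4, 2 were called at 8 h. Without WT 8 h replicates 1 and 4, 6 mitotic genes and no D3 cyclin were called at 8 h, and without replicates 2 and 3, 3 mitotic genes and 1 D3 cyclin. These fits were chosen after seeing the data, and called 8251 and 7884 of all genes against 6675 with all libraries.

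In XVE:EPFL4, mitotic genes were also called higher over time. At 3 h, 2 mitotic genes had risen and 1 D3 cyclin had fallen. These 3 of 10 members are near the 34% of all genes called in either direction. At 8 h, 4 mitotic genes had risen and 1 D3 cyclin had fallen, where 35.8% of all genes were called (18.2% higher and 17.5% lower). At that time 5 mitotic genes lay wholly above their uninduced range, as did 19.7% of all genes tested. The median log2 change of the mitotic genes was 0.36 at 8 h. In the fit across all 35 libraries no member was called at 3 h. At 8 h that fit called 2 members, CYCD3;2 and CDKB1;1, and none of the 4 mitotic rises above. Without the libraries numbered 4 no member was called at 8 h. Without XVE:EPFL4 8 h replicate 1, 3 members were called at that time.

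In er XVE:ER the calls changed with a single library. With all libraries, no member was called at 3 h and 1, CYCD3;2, had fallen at 8 h, where 16.3% and 16.2% of all genes were called. DESeq2 gave the same 0 and 1, and 3 members at 3 h and 1 at 8 h had an unadjusted p under 0.05, against 30.9% and 30.7% of all genes. Without er XVE:ER uninduced replicate 4, 4 mitotic genes and CYCD3;1 were higher at 3 h and 2 mitotic genes were higher at 8 h, where 31.9% and 24.7% of all genes tested were called, while leaving out er XVE:ER 8 h replicate 1 changed no call of a member. The mitotic genes' median log2 change was 0.16 at 3 h and -0.05 at 8 h with all libraries, and 0.42 and 0.25 without that uninduced replicate.

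**Figure D3:**
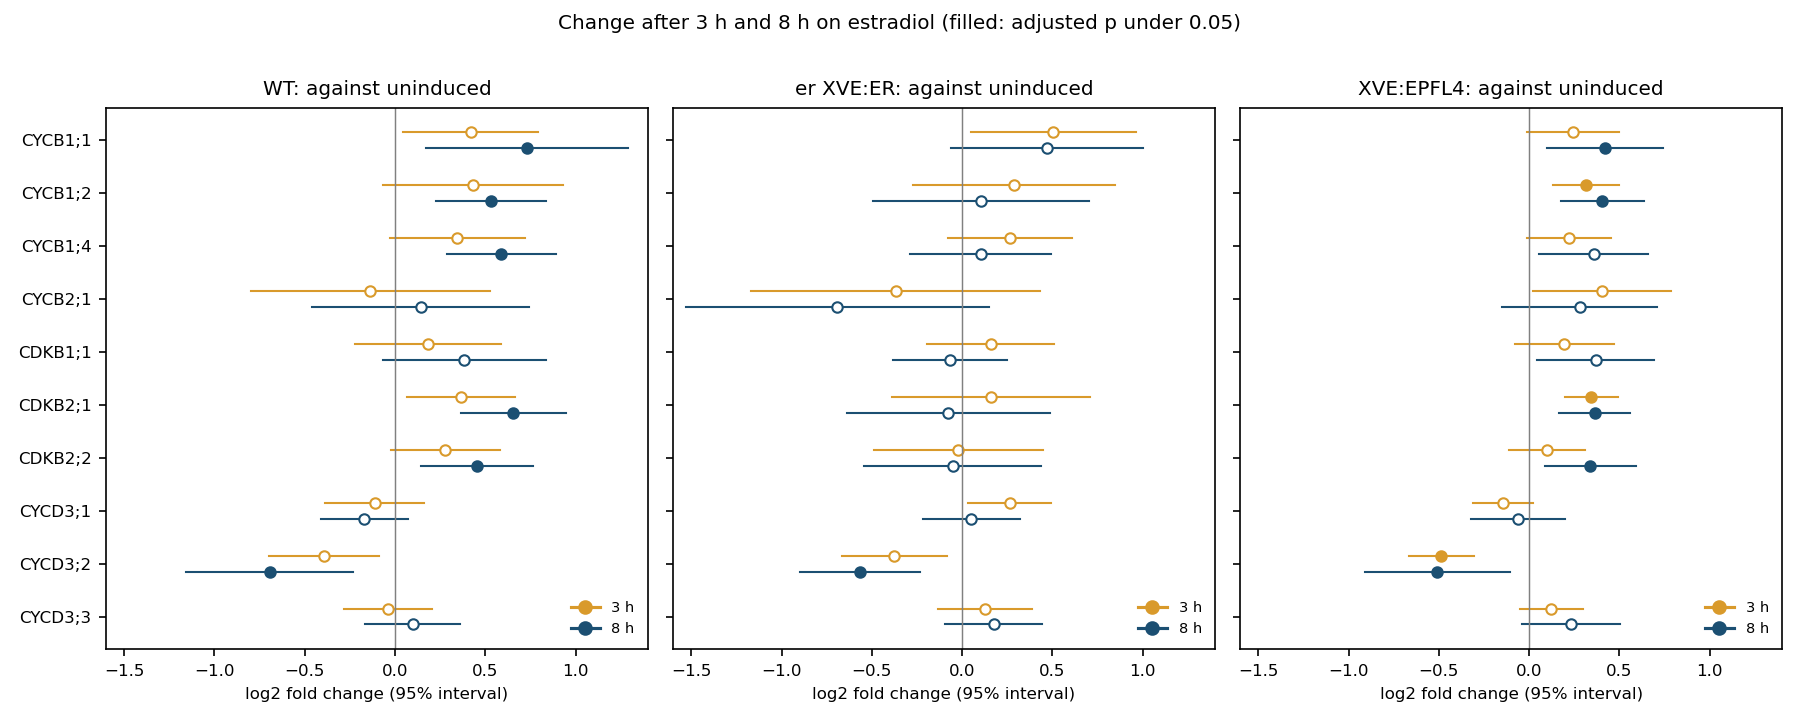
Log2 change of each of the 10 genes after 3 h and 8 h on estradiol against the uninduced libraries of the same line from edgeR, for WT, er XVE:ER and XVE:EPFL4, with points for the estimates, bars for 95% intervals and filled points for calls at an adjusted p under 0.05. At 8 h the filled points are 5 mitotic genes in WT and 4 in XVE:EPFL4 above 0, and CYCD3;2 below 0 in all 3 lines.

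From 3 h to 8 h none of the 10 genes was called in any line, with 0, 0 and 1 at an unadjusted p under 0.05 in WT, er XVE:ER and XVE:EPFL4 (29.9%, 31.7% and 39.7% of all genes), and DESeq2 gave no call either. Over all genes 16%, 15.4% and 26.8% were called in the 3 lines. The median log2 change of the mitotic genes was 0.25 in WT, -0.18 in er XVE:ER and 0.14 in XVE:EPFL4.

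The question of whether a transgene altered the response was tested as the difference between a line's response and that of WT. No member was called in any of the 4 tests, in edgeR or DESeq2, and few genes of any kind were (0.00981% and 0.00985% for er XVE:ER at 3 h and 8 h, 2.06% and 0.157% for XVE:EPFL4). At an unadjusted p under 0.05 there was 1 member for er XVE:ER at 3 h, 2 at 8 h and none for XVE:EPFL4, against 3.88%, 4.53%, 15.3% and 10.7% of all genes in the 4 tests. The 95% intervals were wide. For CDKB2;1 the difference at 8 h was -0.73 on the log2 scale for er XVE:ER (95% interval -1.38 to -0.09) and -0.30 for XVE:EPFL4 (-0.61 to 0.02). For CYCD3;2 it was 0.13 (-0.43 to 0.68) and 0.18 (-0.44 to 0.80). Each difference uses the uninduced libraries of both lines, and the one for er XVE:ER at 8 h contains replicate 4 described above. Without that library no member was called either, and the CDKB2 difference above was -0.37 (edgeR adjusted p = 0.617).

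CYCB1;1, whose promoter drives a widely used reporter of cells in G2 and mitosis, is also known for its induction after DNA damage. Its transcript lies on chromosome 4 from 17621886 to 17624308, on the minus strand, in 8 exons. Uninduced WT libraries held 4.34, 3.40, 4.60 and 3.22 CPM, and uninduced XVE:EPFL4 libraries 5.23, 6.77, 6.77 and 6.57. The latter were all higher, by 0.73 ± 0.16 on the log2 scale (SE, edgeR adjusted p = 0.0121), or 1.65-fold. At 8 h the level was 4.72, 8.20, 8.38 and 4.48 CPM in WT, where replicates 1 and 4, 1 of the pairs described above, stayed near the uninduced range and replicate 4 within it. That change was 0.73 ± 0.25 (edgeR adjusted p = 0.0471), or 1.10 without that pair (adjusted p = 0.000898) and 0.25 without the other pair (adjusted p = 0.349). It was lost on leaving out any uninduced WT library or WT 8 h replicates 2 or 3, with adjusted p up to 0.122. XVE:EPFL4 at 8 h held 8.48, 9.73, 7.24 and 8.97 CPM, all above its uninduced libraries (0.42 ± 0.15, edgeR adjusted p = 0.0456), a call lost without any 1 of 7 of the 8 libraries (adjusted p up to 0.121, kept only without replicate 3 at 8 h). In er XVE:ER the uninduced libraries held 4.22, 4.93, 4.31 and 7.66 CPM and the 3 h libraries 7.50, 6.99 and 8.03. Without the uninduced replicate at 7.66 the log2 change was 0.74 at 3 h (edgeR adjusted p = 0.00279) and 0.71 at 8 h (adjusted p = 0.0275), and with it 0.50 at 3 h (adjusted p = 0.124).

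CYCB1;2, listed by RefSeq as CYC1BAT, is the most abundant B cyclin here per kilobase and lies on chromosome 5 from 1859279 to 1861703, on the minus strand. Uninduced WT libraries held 14.0, 16.2, 11.1 and 15.0 CPM against 22.9, 24.8, 22.0 and 21.4 in uninduced XVE:EPFL4. The groups did not overlap, and the log2 difference was 0.71 ± 0.11 (edgeR adjusted p = 0.00167), or 1.63-fold. After 8 h WT held 17.7, 23.5, 20.13 and 20.19 CPM, all above its uninduced libraries (0.53 ± 0.13, edgeR adjusted p = 0.0143). XVE:EPFL4 held 28.3, 31.0, 24.3 and 30.2 CPM at 3 h and 31.4, 30.8, 26.0 and 34.5 at 8 h. These rises were 0.31 ± 0.09 (edgeR adjusted p = 0.0108, groups overlapping) and 0.41 ± 0.10 (adjusted p = 0.0121, no overlap). Leaving out single libraries changed none of these 4 calls. In the fit across all 35 libraries none of the 4 was called, and without the libraries numbered 4 only the line difference was. The er XVE:ER libraries were 16.4, 18.05, 14.8 and 35.8 CPM uninduced, and 25.4, 25.0 and 27.6 at 3 h. With replicate 4 left out, the rise at 3 h was 0.66 (edgeR adjusted p = 0.00102) and that at 8 h 0.48 (adjusted p = 0.0397), and with all libraries they were 0.29 (adjusted p = 0.489) and 0.11 (adjusted p = 0.822).

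CYCB1;4, another B1 cyclin, is at 11401118 to 11403433 on chromosome 2, plus strand. It held 7.93, 6.23, 7.38 and 7.48 CPM in uninduced WT, and 9.20, 12.8, 11.4 and 10.2 at 8 h. The groups were apart, with a log2 change of 0.59 ± 0.13 (edgeR adjusted p = 0.00863). In uninduced XVE:EPFL4 it held 10.7, 12.3, 12.7 and 9.73 CPM, again all above uninduced WT (0.66 ± 0.12, edgeR adjusted p = 0.00477). Neither call changed on leaving out a library. XVE:EPFL4 rose further, to 13.3, 14.4, 13.3 and 18.02 CPM at 8 h, without overlap but short of the threshold (0.36, edgeR adjusted p = 0.0645). Replicate 4 was also the highest of the er XVE:ER uninduced libraries (8.98, 10.9, 8.04 and 13.2 CPM), and without it the 12.6, 11.9 and 12.7 CPM at 3 h were called higher (0.42, edgeR adjusted p = 0.0228).

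CYCB2;1 was the lowest of the 10 genes and was called in no comparison. Its group means ran from 1.82 CPM in WT at 3 h to 3.09 in uninduced er XVE:ER, the latter from libraries of 1.82, 2.36, 2.37 and 5.80 CPM. The log2 change at 8 h was 0.14 ± 0.27 in WT and 0.28 ± 0.19 in XVE:EPFL4, with 95% intervals that reached 0.74 and 0.71. All 4 XVE:EPFL4 libraries at 3 h (2.76, 2.67, 3.21 and 3.13 CPM) lay above the uninduced ones (1.84, 2.54, 2.13 and 2.34), at 0.40 ± 0.18 (edgeR adjusted p = 0.0984).

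Among the kinases, CDKB1;1, which is needed for the symmetric divisions that make stomata, was called in no comparison by edgeR with all libraries fitted as described. Uninduced WT held 5.90, 7.34, 4.38 and 6.59 CPM, uninduced XVE:EPFL4 7.58, 10.9, 9.04 and 7.08, and XVE:EPFL4 at 8 h 11.1, 10.6, 11.2 and 12.4. The first pair differed by 0.52 on the log2 scale (edgeR adjusted p = 0.0786, called by DESeq2) and the second by 0.37 (adjusted p = 0.0751). Both pairs overlapped. Without XVE:EPFL4 uninduced replicate 2 its rises in that line at 3 h and 8 h were called, as was its 8 h value in the fit across all 35 libraries and its rise in WT without 8 h replicates 1 and 4 (0.58, edgeR adjusted p = 0.045). A stretch of 71 bases is shared with AT3G54190 on the other strand, which held 46.8 to 64.3 CPM, and since the strand setting of the counting is not stated, reads in that stretch cannot be assigned.

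CDKB2;1 was higher in XVE:EPFL4 before induction and rose over time in both WT and XVE:EPFL4. CDKB2 kinases peak at the passage into mitosis and are needed to keep the shoot meristem ordered. Uninduced WT held 11.8, 15.7, 12.1 and 13.5 CPM, against 17.5, 22.9, 22.8 and 20.4 at 8 h, without overlap and 1.58-fold higher (log2 0.66 ± 0.13, edgeR adjusted p = 0.00437). Uninduced XVE:EPFL4 held 19.9, 20.7, 21.3 and 19.0 CPM, all above uninduced WT (0.62 ± 0.10, edgeR adjusted p = 0.00244). It held 26.1, 24.9, 26.9 and 25.2 CPM at 3 h and 29.0, 25.0, 24.8 and 26.8 at 8 h, all above the uninduced libraries. Those rises were 0.34 ± 0.07 (edgeR adjusted p = 0.00144) and 0.36 ± 0.09 (adjusted p = 0.00981). None of the 4 calls was lost on leaving out a library. In the fit across all 35 libraries only the WT call was kept, and without the libraries numbered 4 only the XVE:EPFL4 call at 8 h was lost. The er XVE:ER libraries held 17.2, 15.1, 17.0 and 35.2 CPM uninduced and 24.2, 20.5 and 26.3 at 3 h, which were called higher only without the library at 35.2 (0.53, edgeR adjusted p = 0.00485, against 0.16 and adjusted p = 0.709 with it).

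Its partner CDKB2;2 held 7.93, 8.84, 6.26 and 8.23 CPM in uninduced WT and 10.035, 12.3, 11.03 and 9.46 at 8 h. The ranges were apart (0.46 ± 0.14, edgeR adjusted p = 0.0304), and the call was lost without 8 h replicates 2 and 3 together (0.32, adjusted p = 0.12). Uninduced XVE:EPFL4 held 11.9, 10.06, 12.2 and 10.2 CPM, above every uninduced WT library (0.52 ± 0.13, edgeR adjusted p = 0.0218), and rose to 15.6, 14.3, 12.9 and 14.2 at 8 h (0.34 ± 0.11, adjusted p = 0.0404). On leaving out single libraries, these were the least firm of the mitotic calls beside those of CYCB1;1 at 8 h. The WT call was lost without uninduced replicates 1, 3 or 4 or 8 h replicates 2 or 3 (adjusted p up to 0.0747). The line difference was lost without WT replicate 3 or XVE:EPFL4 replicates 1 or 3 (up to 0.0682), and the XVE:EPFL4 rise without any 1 of 6 of the 8 libraries (up to 0.117, kept without uninduced replicate 3 or 8 h replicate 3).

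Of the D3 cyclins, CYCD3;2 was called lower at 8 h in all 3 lines. It lies on chromosome 5 from 26836139 to 26839597, plus strand, in 4 exons. Uninduced WT held 80.5, 76.3, 55.8 and 66.5 CPM, and 29.3, 57.3, 48.9 and 36.7 at 8 h, where only replicate 2 reached the uninduced range. The change was -0.70 ± 0.20 (edgeR adjusted p = 0.0272), to 0.618 of the starting level, or -0.39 without replicates 1 and 4 (adjusted p = 0.0554) and -1.08 without replicates 2 and 3 (adjusted p = 0.000163). XVE:EPFL4 held 72.7, 64.2, 83.6 and 66.5 CPM uninduced and 47.4, 54.2, 52.8 and 51.3 at 3 h, with a wide gap between them (-0.49 ± 0.08, edgeR adjusted p = 0.000432). At 8 h it held 65.0, 59.4, 35.3 and 44.7 CPM, and replicate 1 overlapped the uninduced libraries (-0.51 ± 0.18, edgeR adjusted p = 0.0494). In er XVE:ER the uninduced libraries held 71.4, 75.7, 71.0 and 93.5 CPM, and those at 8 h 58.8, 45.2, 47.1 and 60.2. The groups did not overlap (-0.57 ± 0.15, edgeR adjusted p = 0.0287), and without uninduced replicate 4, at 93.5 CPM, the change was -0.46 (adjusted p = 0.0298).

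The 3 h call in XVE:EPFL4 held on leaving out each of the 8 libraries but not in the fit across all 35 libraries. The other CYCD3;2 calls were lost without single libraries: in WT at 8 h without uninduced replicates 1, 2 or 4 or 8 h replicate 4 (adjusted p up to 0.0642), in er XVE:ER without uninduced replicates 1, 2 or 3 or 8 h replicates 2 or 3 (up to 0.0927), and in XVE:EPFL4 at 8 h without any 1 of 6 (up to 0.125, kept without 8 h replicates 1 or 2). At 3 h the changes in WT and er XVE:ER were -0.39 and -0.38, short of the threshold. Without WT 3 h replicate 4, whose 64.9 CPM lay above the 46.9 to 50.4 of its fellows, the WT change was -0.51 (edgeR adjusted p = 0.00399). Before induction the lines overlapped, with uninduced levels of 69.8 ± 11.01, 77.9 ± 10.6 and 71.7 ± 8.70 CPM (SD, n = 4 each) in WT, er XVE:ER and XVE:EPFL4.

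CYCD3;1, a gene known for its induction by cytokinin, did not follow this fall and was called in no comparison with all libraries. Its mean level was 29.6 ± 3.49 CPM in uninduced WT, 33.6 ± 3.21 in uninduced er XVE:ER (SD, n = 4 each) and 40.4 ± 0.693 in er XVE:ER at 3 h (n = 3). The libraries of the latter (40.8, 40.8 and 39.6 CPM) were all above the uninduced ones (30.3, 35.5, 31.5 and 37.0), at 0.26 ± 0.11 on the log2 scale (edgeR adjusted p = 0.112). The change was 0.32 without replicate 4 (edgeR adjusted p = 0.0218), and the difference from the WT response was 0.38 (adjusted p = 0.94). In uninduced XVE:EPFL4 it held 35.3, 34.5, 42.0 and 32.9 CPM, 0.30 above WT (edgeR adjusted p = 0.0788). The gene shares 40 bases with AT4G34150 on the same strand, which held 31.4 to 269 CPM.

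CYCD3;3 was the flattest member, with group means between 18.9 and 24.6 CPM, 1.31-fold from lowest to highest. Uninduced WT held 23.6, 22.0, 17.8 and 18.8 CPM and WT at 8 h 20.9, 25.5, 20.13 and 21.2. Its changes at 8 h were 0.10 in WT, 0.17 in er XVE:ER and 0.23 in XVE:EPFL4, with 95% intervals that reached 0.36, 0.44 and 0.50. No call was made on it in any comparison with all libraries.

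Over the 35 libraries the mitotic genes were more alike in their levels than the D3 cyclins, a difference not seen within conditions. Pearson correlations of log2 CPM among the 21 pairs of mitotic genes had a median of 0.75 (0.47 to 0.90), and 0.47 (0.20 to 0.79) once the mean of each condition was subtracted. Among the 3 pairs of D3 cyclins they ran from -0.08 to 0.43, and from 0.47 to 0.56 with the condition means subtracted, and over the 35 libraries between the classes the median was 0.40. The libraries share conditions and depth, so these are descriptions. Differences between conditions took 60.7 to 71.7% of the variance in the mitotic genes, apart from 36.1% in AT2G17620, 61.5 to 68.4% in the D3 cyclins AT5G67260 and AT4G34160, and 43.0% in AT3G50070. The median over all genes was 49.9%.

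Of the 5 genes whose profile over the 35 libraries was most like the mean profile of the mitotic genes, 4 are given here: AT4G03100 (r = 0.94), CDC20.1 (0.94), an activator of the anaphase-promoting complex, the microtubule end-binding protein EB1C (0.94) and AT5G56120 (0.93). EB1C (AT5G67270) is the nearest gene to CYCD3;2 that does not overlap it, 414 bases away. For the D3 cyclins the most alike were ARAC1 (0.76), AT3G17160 (0.76), CEL2 (0.75), CYCA2;3 (0.74) and AT5G27893 (0.74). Taken over the 9 condition means, only EB1C recurred among the 5 nearest of the mitotic profile and none of the D3 profile.

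The other cell cycle genes were read from 7 lists with 88 genes. In uninduced XVE:EPFL4 against uninduced WT, 9.93% of all genes tested were called and 5.93% were called higher. Of other A and B cyclins and CDKB relatives, 8 of 11 were higher and none lower (CYCB2;2 by 0.90 and CYCA2;2 by 0.77 on the log2 scale). Also higher were 11 of 15 other genes of mitosis and cytokinesis (MAP65-3 by 0.84, CDC20.1 by 0.82), and 4 of 18 genes of DNA replication. Of the MYB3R factors, MYB3R4, an activator of the late genes, was 0.74 higher and the other 3 were not called. The G1 regulators gave 1 of 13 higher (CYCD1;1 by 0.40), the CDK inhibitors 1 of 15 (KRP1 by 0.75) and the group with the mitotic kinase inhibitor WEE1 1 of 10 (WEE1 by 0.59). These single calls are close to the 5.93% of all genes called higher. In er XVE:ER against WT, with uninduced replicate 4 included, none of the 7 lists gave a call, where 0.0861% of all genes were called.

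After 8 h on estradiol, many genes of DNA replication were called higher in WT and XVE:EPFL4. In WT 13 of 18 were called higher, against 18.4% of all genes, and none lower, among them TSO2, a subunit of ribonucleotide reductase (1.29), and ORC2, of the origin recognition complex (1.04). In XVE:EPFL4 11 of 18 were higher, against 18.2% of all genes (ORC2 by 1.19, TSO2 by 0.82). In er XVE:ER 2 of 18 were (TSO2 by 1.13, CDC6 by 0.99), a share near the 8.78% of all genes called higher there. The median log2 change was 0.69 in WT, 0.46 in er XVE:ER and 0.38 in XVE:EPFL4. At 3 h none of 18 was higher and 2 were lower in WT, 5 were higher and 1 lower in XVE:EPFL4, and none was called in er XVE:ER. Over all genes 23.5%, 34% and 16.3% were called in either direction at 3 h in WT, XVE:EPFL4 and er XVE:ER. The counts of the list were near or below these shares. Replicate 4 of uninduced er XVE:ER, high in mitotic genes, was low here, with a summed level of 182 CPM against 404 to 450 in its fellows. The list counts for er XVE:ER include that library and are not given without it. Over all genes, 16.2% were called in er XVE:ER at 8 h with it and 24.7% without it.

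**Figure D4:**
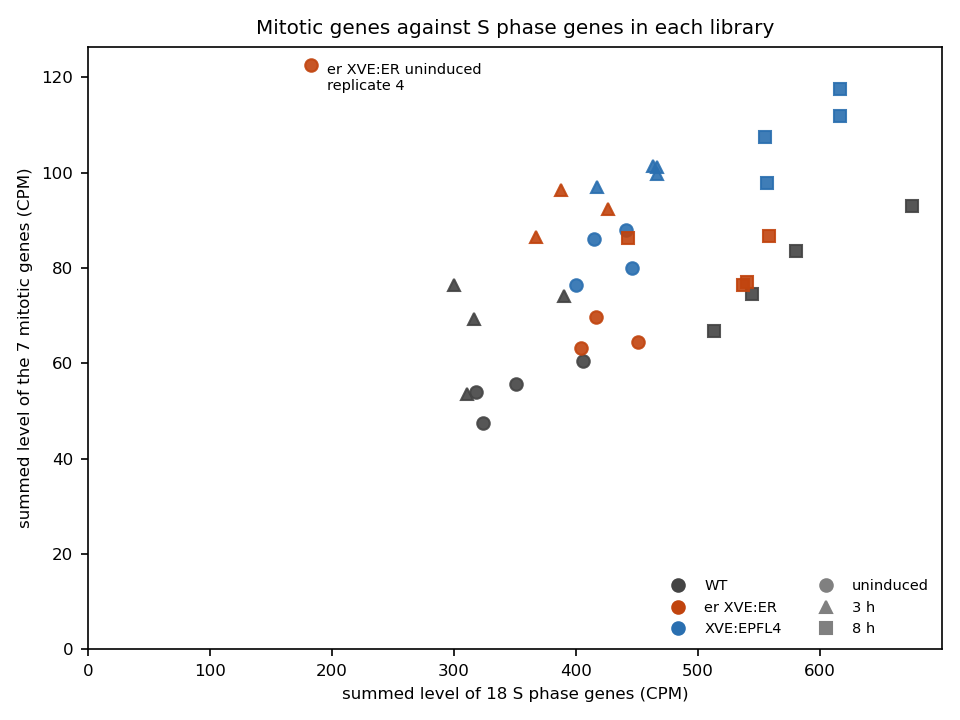
Summed level of the 7 mitotic genes against the summed level of the 18 DNA replication genes in each of the 35 libraries, both in CPM, coloured by line with a symbol for each time. Uninduced WT sits lowest on the mitotic axis at 47.5 to 60.5 CPM, and er XVE:ER uninduced replicate 4 lies apart at 123 CPM of mitotic and 182 CPM of replication transcripts.

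Of the other lists at 8 h, WT had 7 of 11 other A and B cyclins higher (CYCA2;1 by 1.47, CYCA2;2 by 1.24), 9 of 15 other mitotic genes (AUR1 by 0.73, MAP65-3 by 0.71) and 2 of 4 MYB3R factors. Over all genes 18.4% were called higher there. XVE:EPFL4 had 4 of 11, 2 of 15 (BUBR1 by 0.55, AUR1 by 0.52) and 1 of 4. Over all genes 18.2% were called higher in that line, and the 2 of 15 lay below that share. With all libraries, er XVE:ER had none in these 3 lists, where 8.78% of all genes were called higher. Among other D cyclins and G1 regulators, CYCD1;1 and CYCD4;1 rose in every line: by 1.02 and 0.93 in WT, 0.81 and 1.20 in er XVE:ER, and 0.85 and 0.94 in XVE:EPFL4. Counts of calls for that list, and for the list with WEE1, are not given at 8 h. These 2 rises are therefore no measure of how the list moved beside all genes. Of the CDK inhibitors, KRP4 fell in WT (by 0.75) and 5 fell and 1 rose in XVE:EPFL4 (KRP4 by -1.04, SMR4 by 1.29), while none was called in er XVE:ER. Over all genes at 8 h, 15.2% were called lower in WT and 17.5% in XVE:EPFL4, and 16.2% were called in either direction in er XVE:ER. Markers of other tissue moved at the same time: 2 of 3 genes of green tissue were lower at 8 h in each line, with the summed level going from 30201 to 36112 CPM in uninduced WT to 14060 to 18847 at 8 h. Of 8 meristem markers, 6 could be tested in WT, with 3 lower and none higher at 8 h, and WUS and CLV3, of the shoot stem cell niche, were at 0 in every uninduced WT library. The part of either in the values of the members was not tested.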

How the data were processed

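RNA-seq counts were analysed for 35 libraries of 9 conditions. Per the methods and the labels, paired-end reads were mapped by the authors to TAIR10 (EnsemblPlants annotation) with STAR 2.7.11a, and the deposited values are raw counts of reads per gene, 1 table per library. Strand setting, trimming and duplicate handling are not given in the sources used here. Replicates are called biological in the methods. Groups were taken from the labels.

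Each comparison was fitted on the libraries it needs in R 4.3.3 with edgeR 4.0.16. Genes were kept by filterByExpr on the conditions, with a count minimum of 10 and a total of at least 15, libraries were scaled by TMM, and the quasi-likelihood F test (glmQLFTest) was adjusted by Benjamini-Hochberg over the whole table and read at 0.05. Uninduced WT entered the fit of er XVE:ER at 3 h as well. Standard errors are the log2 change over the root of F, and intervals are at 95%. CPM were scaled by TMM over the 35 libraries together, and a prior count of 2 entered their log2. The 15 comparisons comprise 6 responses, 3 of 8 h against 3 h, 2 of uninduced lines and 4 differences of responses. Alternatives were DESeq2 1.42.0, its size factors in edgeR, a filter of 1 count, all libraries in 1 fit, a replicate block, each library left out, and the libraries numbered 4 left out, with 2 pairs of WT 8 h libraries left out as a choice made after seeing the data. The procedure was tested on simulated counts for WT at 8 h against uninduced. It recovered 7.46% of genes given a log2 change of 0.5, 73.1% at 1 and 93.8% at 2. Far fewer genes were changed there than the real comparison called.

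Gene models and sequences came from RefSeq on TAIR10.1, which matched 32548 of 32833 identifiers, while the tables hold no coordinates. Windows stop at the base before the gene start. The named genes were the 10 members, at most 2 rises and 2 falls per list and comparison, ER and EPFL4, and the 5 nearest profiles, of which 1 is not reported here. The members and lists were chosen with earlier results of these data known.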

Additional observations from a re-analysis of the deposited data

Results flagged for a closer look

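Among 80 sets of libraries (10 genes in each of 8 conditions with 4 libraries), 7 had a library set apart from the other 3 by a gap above Dixon's critical value, which chance gives in about 1 of 20 sets. Of these, 3 were er XVE:ER uninduced replicate 4: CYCB1;2 at 35.8 CPM against 14.8 to 18.05, CYCB2;1 at 5.80 against 1.82 to 2.37 and CDKB2;1 at 35.2 against 15.1 to 17.2. In the same library CCA1 stood at 59.5 CPM and LHY at 22.3 CPM, below 269 to 297 and 214 to 232 in its fellows, and ER at 67.8 CPM, above 44.5 to 47.9. CYCB1;1 stood at 5.23 CPM in XVE:EPFL4 uninduced replicate 1 against 6.57 to 6.77 in the others, and at 9.76 CPM in er XVE:ER 8 h replicate 4 against 6.25 to 6.80. CYCB2;1 stood at 3.17 CPM in XVE:EPFL4 8 h replicate 1 against 2.52 to 2.63, and CDKB2;1 at 17.7 CPM in er XVE:ER 8 h replicate 2 against 20.7 to 20.9.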

How the results depend on the processing

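Of 1490 single values of the 10 genes with 1 library left out, 1363 kept their direction and their side of the threshold, 42 lost a call, 15 gained one and 70 changed sign without a call in either fit. None turned a called direction. The cause of the changes below was not tested, beyond fewer libraries where some were left out. The lowest member count, 21, and 4 libraries a group limit what can be called for CYCB2;1.

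Members called moved from 0 to 1 in WT at 3 h with DESeq2 and to 1 without the libraries numbered 4. Without those libraries they were 2 in WT at 8 h, 4 in er XVE:ER at 3 h, 2 in er XVE:ER at 8 h, 0 in XVE:EPFL4 at 8 h and 3 between the uninduced XVE:EPFL4 and WT. With all 35 libraries in 1 fit they were 0 and 2 in XVE:EPFL4 at 3 h and 8 h and 1 between uninduced XVE:EPFL4 and WT, and without the filter 3 in XVE:EPFL4 at 8 h. With 1 library left out the members called ranged from 0 to 2 and 3 to 6 in WT at 3 h and 8 h, 0 to 5 and 0 to 3 in er XVE:ER, 3 to 4 and 2 to 5 in XVE:EPFL4, and 4 to 6 between uninduced XVE:EPFL4 and WT.

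Between the groups compared, same-numbered libraries did not deviate together (pair correlations from -0.31 to 0.27), so the numbers were not taken to pair them. Some pairs outside that check shared the number 4. The library most like er XVE:ER uninduced replicate 4 was WT 3 h replicate 4 (r = 0.961). The library most like the latter was er XVE:ER 3 h replicate 4 (r = 0.969). With a replicate block the members called were 4 in WT at 8 h, where CYCB1;1 and CDKB2;2 were lost, 2 in XVE:EPFL4 at 8 h and 4 between uninduced XVE:EPFL4 and WT. The block gave 6 genes called between uninduced er XVE:ER and WT, and 1, 1 and 18 genes for the differences of responses of er XVE:ER at 3 h and 8 h and of XVE:EPFL4 at 8 h.

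Genes called of all kinds, without the libraries numbered 4, were 4311 in WT at 8 h (6675 with all), 4964 and 5667 in er XVE:ER at 3 h and 8 h (3299 and 3203), 4558 in XVE:EPFL4 at 8 h (7153), 1999 and 2725 from 3 h to 8 h in er XVE:ER and XVE:EPFL4 (3085 and 5395), 26 and 1210 between uninduced er XVE:ER or XVE:EPFL4 and WT (17 and 1965), and 5, 1, 1204 and 4 for the 4 differences of responses, in the order er XVE:ER 3 h and 8 h and XVE:EPFL4 3 h and 8 h (2, 2, 419 and 32). With all 35 libraries in 1 fit they were 6578 in er XVE:ER at 8 h, 2971 in XVE:EPFL4 at 3 h, 4924 in WT from 3 h to 8 h, 29 and 396 between the uninduced lines and WT, and 1, 4, 16 and 100 for the differences. DESeq2 called 74 between uninduced er XVE:ER and WT, and 6, 9, 868 and 282 for the differences. Without the filter the first difference had 1 call, and 11 without er XVE:ER uninduced replicate 4 and WT 3 h replicate 4, a setting chosen after seeing the data.

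With 1 library left out, genes called ranged from 3021 to 7324 and 5032 to 6487 in WT at 3 h and 8 h, 1625 to 6428 and 1892 to 4952 in er XVE:ER, 5509 to 6694 and 5490 to 7409 in XVE:EPFL4, 1711 to 4077, 1190 to 3661 and 3297 to 6233 from 3 h to 8 h in WT, er XVE:ER and XVE:EPFL4, 4 to 49 and 1166 to 1879 between the uninduced er XVE:ER or XVE:EPFL4 and WT, and 1 to 2, 1 to 3, 188 to 2016 and 4 to 228 for the differences.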
